A study of Mus musculus with 12 samples.

Results

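The classical cadherins and their relatives *Cdh1*, *Cdh2*, *Cdh3*, *Cdh4*, *Cdh6*, *Cdh10*, *Cdh11* and *Cdh13* were followed across whole adrenals of control and βCat-GOF mice. They were chosen by gene name, and these 8 genes are 8 of the 39017 in the count table. Of the 8, 5 (*Cdh2*, *Cdh4*, *Cdh6*, *Cdh11* and *Cdh13*) had enough reads to be tested, and *Cdh1*, *Cdh3* and *Cdh10* did not pass edgeR's filter on low counts. RNA was sequenced from 12 female mice aged 10 to 11 weeks on a mixed sv129-C57Bl/6 background, 6 controls (Ctrl) of genotype ASCre/+ and 6 βCat-GOF mice of genotype ASCre/+ :: Ctnnb1fl(ex3)/+. Every mouse of both groups therefore carries 1 Cre allele at the aldosterone synthase gene *Cyp11b2* (AS), used by cells of the zona glomerulosa (zG), the outermost layer of the cortex, and in βCat-GOF mice this Cre deletes exon 3 from 1 of the *Ctnnb1* alleles, which leaves a β-catenin that is not degraded. The gland was sequenced whole, after trimming of fat. Recombination took place in cells with Cre, while the reads come from all cells. The paper cites lineage tracing in which zG cells move inward and become cells of the zona fasciculata, the next layer. Cells of that layer may therefore carry the deletion too. Fewer cells of a type and less RNA per cell cannot be told apart in such samples.

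Classical cadherins are single-pass membrane proteins that bind their like on the neighbouring cell through calcium-dependent extracellular repeats, and their cytoplasmic tails bind β-catenin and p120-catenin. β-catenin in turn binds α-catenin, which links the adherens junction to actin, and the same β-catenin outside the junction acts with LEF/TCF factors in canonical Wnt signalling. Type I members here are *Cdh1* (E-cadherin), *Cdh2* (N-cadherin), *Cdh3* (P-cadherin) and *Cdh4* (R-cadherin), and type II members are *Cdh6* (K-cadherin), *Cdh10* and *Cdh11* (OB-cadherin). *Cdh13* (T-cadherin) has no cytoplasmic tail and is held in the membrane by a lipid anchor. The comparison addresses which of these cadherins the adrenal transcribes and which differ in transcript level when β-catenin is stabilized in zG cells.

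*Cdh2* was the most abundant member in both groups, and *Cdh6* was the only one to pass the test between genotypes, with a 1.73-fold higher level in βCat-GOF adrenals. *Cdh2* supplied 64.7% ± 6.99 of the summed level of the 8 genes in controls and 61.9% ± 4.19 in βCat-GOF adrenals, where every ± is the SD over the 6 mice of a group unless named SE. The *Cdh6* call rested on the full set of 12 mice, since it passed in 4 of 12 leave-one-out fits. No member was called lower. *Cdh1*, *Cdh3* and *Cdh10* had at most 15 counts in any mouse.

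The libraries held between 13484675 and 25625494 reads counted on genes per mouse, and 3 counts, the level used as a floor, correspond to between 0.117 and 0.222 CPM (counts scaled to a fixed library total). A gene was called when its adjusted p in the quasi-likelihood test of edgeR was under 0.05, the fold change above 1.4 and the mean normalized count over all mice (base mean) above 100. By this rule 1.48% of the 14953 genes tested were called higher in βCat-GOF adrenals and 0.869% lower. The labels of some mice share a stem (Ctrl 1 with Ctrl 2, Ctrl 3 with Ctrl 4, βCat-GOF 1 with βCat-GOF 2), and no pair within a group had counts as alike as sampling noise would give (chi-square per degree of freedom of at least 16.6). All controls carry one leading number in their labels and 5 of 6 βCat-GOF mice another, so whatever the number stands for and the genotype cannot be told apart. The defining markers *Cyp11b2* (aldosterone synthase, zG), *Cyp11b1* (zona fasciculata, zF), *Th* (medulla), *Col1a1* (capsule and stroma), *Pecam1* (endothelium) and *Adipoq* (fat) were all present, and none of these 6 passed the test. The adipocyte markers sum to between 173 and 927 CPM over the 12 mice, with *Cfd* at 40.9% and *Fabp4* at 33.8% of the summed level. *Adipoq* alone had between 59 and 1842 counts per mouse, so some fat RNA was in the samples.

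The genes lie on different parts of the genome, and their coordinates are on GRCm38 with GENCODE M21 exons. *Cdh6* (ENSMUSG00000039385) is on chromosome 15 from 13028701 to 13173675 on the minus strand, and *Cdh10* (ENSMUSG00000022321) is on the same chromosome from 18818947 to 19014236 on the plus strand. *Cdh2* (ENSMUSG00000024304) is on chromosome 18 from 16588877 to 16809246, minus strand, and *Cdh4* (ENSMUSG00000000305) on chromosome 2 from 179442431 to 179899373, plus strand. The other 4 are on chromosome 8. *Cdh11* (ENSMUSG00000031673) spans 102632095 to 102785642 on the minus strand and *Cdh13* (ENSMUSG00000031841) spans 118283733 to 119324921 on the plus strand. *Cdh3* (ENSMUSG00000061048) from 106510891 to 106557297 and *Cdh1* (ENSMUSG00000000303) from 106603351 to 106670246 are neighbours on the plus strand. No exon of any of the 8 overlaps an exon of another gene.

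The coding sequences show how far the reads of one member can be told from those of another. The closest pair was *Cdh6* and *Cdh10*, both type II, with 71.8% identical bases over the aligned coding sequence. Next were the type I pair *Cdh2* and *Cdh4* with 68.9% and the neighbours *Cdh1* and *Cdh3* with 65.8%. *Cdh6* and *Cdh2*, of different types, shared 61.1%. Identity did not separate the types, since *Cdh2* and *Cdh3*, both type I, shared 62.5% and *Cdh1* and *Cdh6*, of different types, 62.9%. A near-identical stretch in another gene (95% or more of the bases, along 10% or more of the member's longest transcript) was found only for *Cdh11*, where 7 genes, among them *2610005L07Rik* and *6820431F20Rik*, share a stretch that covers 20.3% of its 5647 bases. Since only uniquely mapping reads were counted, the *Cdh11* level is less certain than the others.

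The sequence before the start site is shown for *Cdh6*, the member that passed the test, because LEF/TCF factors, the DNA-binding partners of β-catenin, are known to bind the core letters CTTTG. It is taken from RefSeq on GRCm38.p6, where 2 of the 8 members, *Cdh6* and *Cdh10*, have an entry. The window is the 250 bases before the start (chr15:13173676-13173925, minus strand), read 5′ to 3′ in the direction of transcription, and both annotated *Cdh6* transcripts begin at the next base. Capitals mark the core CTTTG, searched on both strands (CAAAG on the printed strand when it lies on the opposite one).
Cdh6 promoter: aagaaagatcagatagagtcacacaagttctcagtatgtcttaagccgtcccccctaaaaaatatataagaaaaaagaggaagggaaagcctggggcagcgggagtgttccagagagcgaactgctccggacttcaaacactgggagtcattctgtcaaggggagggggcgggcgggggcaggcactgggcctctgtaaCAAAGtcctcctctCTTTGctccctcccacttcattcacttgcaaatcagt
The window holds 2 cores, with the first base of each at 51 and 37 bases before the start site. The longer form CTTTGAT, which contains the core, was not in this window. Other longer forms were not searched. Among 32851 mouse promoters of the same length 48.6% hold at least 1 core on either strand, 15.7% hold at least 2 and 3.21% hold the longer form. These matches describe letters only and no binding was measured.

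*Cdh2*, the N-cadherin of neural and mesenchymal tissues, had a level of 10.0 RPKM in the lowest control, 12.6 at the median and 18.6 in the highest (RPKM is the CPM per kilobase of the gene's merged exons). In βCat-GOF adrenals the lowest, median and highest were 10.7, 12.2 and 14.9 RPKM. The ranges lay almost on top of each other, with 1 control (Ctrl 2) above every βCat-GOF mouse. As normalized counts (counts divided by the library's size factor), *Cdh2* had 2138 ± 460 in controls and 2029 ± 255 in βCat-GOF adrenals. Its log2 fold change was -0.08 (SE 0.14, 95% interval -0.37 to 0.21, edgeR adjusted p = 0.78). The interval leaves room for a fold between 0.773 and 1.15. In controls *Cdh2* ranked 3767 of 14821 tested genes with a known length, higher than 74.6% of them. The endothelial *Cdh5* (VE-cadherin), which is not among the 8, had a similar level of 13.1 ± 1.76 RPKM in controls and 12.4 ± 1.06 in βCat-GOF adrenals.

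**Figure D1:**
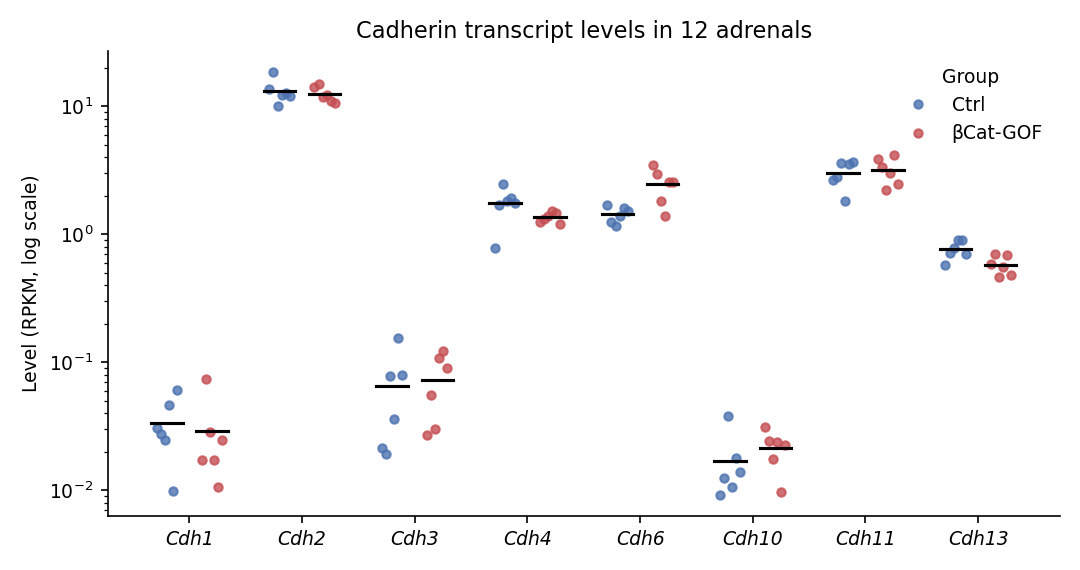
Level of each of the 8 cadherins in every mouse, in RPKM on a log scale, with the 6 Ctrl mice in blue, the 6 βCat-GOF mice in red and black lines for the group means. *Cdh2* lies highest in every mouse, *Cdh6* is the gene whose red points sit mostly above the blue ones, and *Cdh1*, *Cdh3* and *Cdh10* lie under 0.2 RPKM.

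*Cdh11*, the type II cadherin of mesenchyme, came next, with 1.81, 3.18 and 3.66 RPKM in the lowest, median and highest control and 2.22, 3.20 and 4.16 RPKM in βCat-GOF adrenals. The groups overlapped over nearly their whole range. Normalized counts were 537 ± 130 and 571 ± 133. The log2 fold change was 0.08 (SE 0.19, 95% interval -0.32 to 0.49, edgeR adjusted p = 0.85), and it changed sign to -0.03 without Ctrl 4 and to -0.0017 without βCat-GOF 5.

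Below these, the control means were 1.75 RPKM for *Cdh4*, 1.44 for *Cdh6* and 0.762 for *Cdh13*. In βCat-GOF adrenals the order of the first pair was turned, with 2.47 RPKM for *Cdh6* and 1.36 for *Cdh4*. The remaining members were far lower, with control means of 0.065 RPKM for *Cdh3*, 0.033 for *Cdh1* and 0.017 for *Cdh10*. The control order of all 8 by mean stayed as it was in 6 of 6 repeats that left out 1 control.

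Each gene was then compared with the next in the order within the same mouse, by an exact two-sided sign-flip permutation test over the 6 mice of a group with Benjamini-Hochberg adjustment over the 7 neighbouring pairs. None of the 7 pairs passed in controls and none in βCat-GOF adrenals. With 6 mice the smallest p such a test can give is 0.03125, and 3 pairs reached it in each group, for an adjusted p of 0.073. In controls these were *Cdh2* over *Cdh11* (4.44-fold, geometric mean), *Cdh6* over *Cdh13* (1.89-fold) and *Cdh13* over *Cdh3* (15.3-fold), each higher in 6 of 6 mice. *Cdh11* over *Cdh4* (higher in 5 of 6, adjusted p = 0.11 by exact permutation) and *Cdh4* over *Cdh6* (5 of 6, adjusted p = 0.53 by exact permutation) did not reach it. *Cdh3* against *Cdh1* and *Cdh1* against *Cdh10* had adjusted p of 0.51 and 0.22 by exact permutation.

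After this result was seen, the same comparison was added over all 12 mice together, which mixes the genotypes. There *Cdh2* lay above *Cdh11* in 12 of 12 mice (4.21-fold, adjusted p = 0.0011 by exact permutation) and *Cdh11* above *Cdh6* in 11 of 12 (1.65-fold, adjusted p = 0.0017 by exact permutation). *Cdh4* lay above *Cdh13*, and *Cdh13* above *Cdh3*, in 12 of 12 mice each. These 4 of 7 pairs passed with merged exons. The place of *Cdh4* above *Cdh13* depended on the gene length used. By the longest transcript *Cdh4* was the higher in 3 of 6 mice in each group. By the longest protein-coding transcript *Cdh13* had the higher mean in both groups. *Cdh6* and *Cdh4*, whose order by mean differs between the groups, were each the higher in 6 mice (adjusted p = 0.24 by exact permutation).

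**Figure D2:**
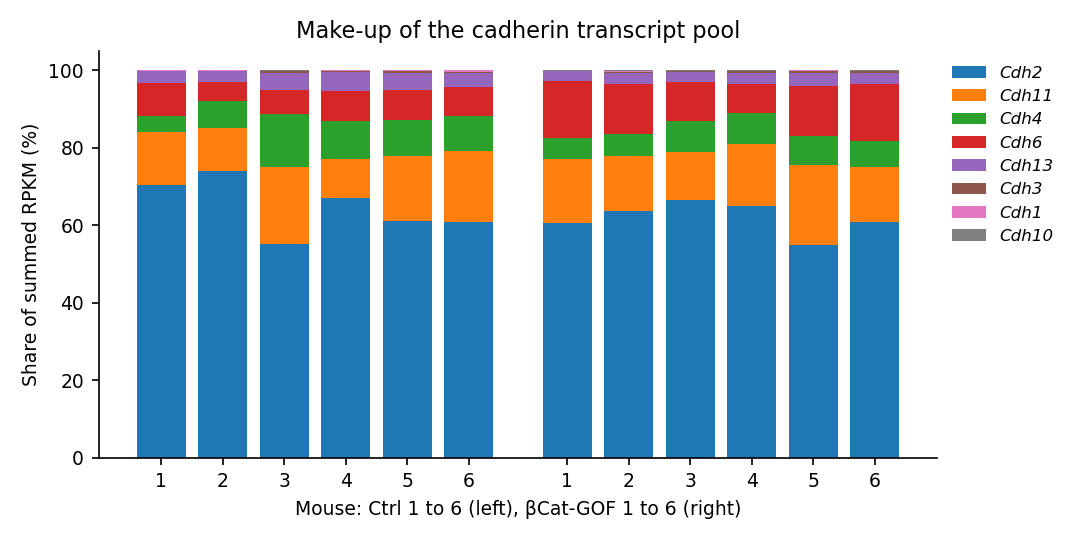
Share of each cadherin in the summed RPKM of the 8 genes, in percent, 1 bar per mouse, with Ctrl on the left and βCat-GOF on the right. The blue part (*Cdh2*) covers more than 50% of every bar, and the red part (*Cdh6*) is wider in most bars on the right.

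The summed level of the 8 genes was 20.3 ± 2.60 RPKM in controls and 20.2 ± 2.64 in βCat-GOF adrenals. Within that sum the share of *Cdh2* ran from 55.1% to 74.0% among controls and from 54.8% to 66.6% among βCat-GOF mice. The share of *Cdh6* was 7.15% ± 1.29 in controls and 12.1% ± 2.85 in βCat-GOF adrenals, that of *Cdh11* 15.0% ± 4.02 and 15.7% ± 2.90, and that of *Cdh4* 8.74% ± 3.21 and 6.83% ± 1.12. Type I members together held 74.0% ± 4.57 and 69.2% ± 4.52, and type II members 22.2% ± 4.38 and 27.9% ± 4.36. Shares add up to a fixed total, so a higher share of *Cdh6* lowers the others, and no test was made on them.

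*Cdh6*, the K-cadherin first known from kidney, had 210, 262 and 307 normalized counts in the lowest, median and highest control. In βCat-GOF adrenals the single mice had 612 (mouse 1), 540 (mouse 2), 475 (mouse 6), 469 (mouse 5), 338 (mouse 3) and 253 (mouse 4). The first 5 lay above every control, and βCat-GOF 4 lay inside the control range. The means were 259 ± 38.1 and 448 ± 132, and the spread among βCat-GOF mice was the larger, with a coefficient of variation of 29.4% against 14.7%. The log2 fold change was 0.79 (SE 0.19, 95% interval 0.38 to 1.20, edgeR adjusted p = 0.038), a fold between 1.30 and 2.30. *Cdh6* was thus 1 of the 5 tested members called higher, beside 1.48% of all genes tested.

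The size of the *Cdh6* difference was steadier than its call. With 1 of the 12 mice left out in turn, its log2 fold change stayed between 0.68 and 0.90, while the adjusted p (edgeR) ran from 0.0081 to 0.079. It was under 0.05 without Ctrl 1, βCat-GOF 1, βCat-GOF 3 or βCat-GOF 4, and above it without Ctrl 2, 3, 4, 5 or 6 or without βCat-GOF 2, 5 or 6. The call was also lost without the mice whose label repeats a stem (Ctrl 1, Ctrl 3 and βCat-GOF 1, log2 fold change 0.67, edgeR adjusted p = 0.089). DESeq2 gave a log2 fold change of 0.79 with an adjusted p of 0.0022.

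**Figure D3:**
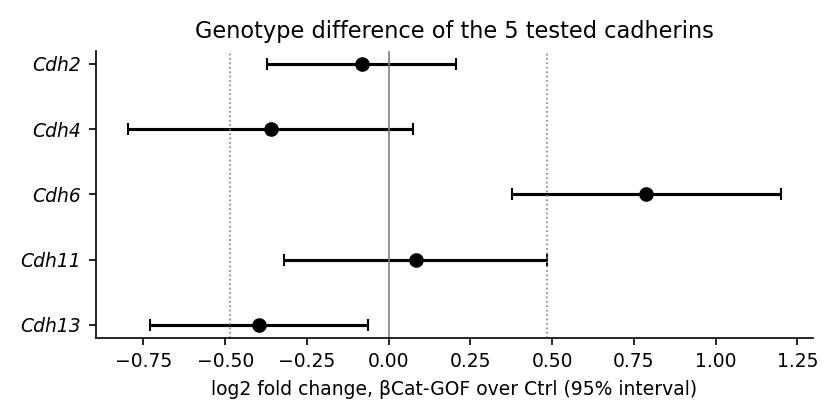
log2 fold change of βCat-GOF over Ctrl for the 5 tested cadherins, with 95% intervals from edgeR's quasi-likelihood fit of 6 and 6 mice, and dotted lines at a fold of 1.4 in either direction. The interval of *Cdh6* (0.38 to 1.20) lies to the right of 0, that of *Cdh13* (-0.73 to -0.06) to the left, and the other 3 intervals include 0.

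Set against other members in the same mouse, *Cdh6* had 11.2 ± 2.24 RPKM per 100 RPKM of *Cdh2* in controls and 19.8 ± 5.37 in βCat-GOF adrenals. Of the βCat-GOF mice 5 of 6 lay above every control in this ratio. Per 100 RPKM of *Cdh11*, *Cdh6* had 50.6 ± 16.4 and 78.7 ± 20.99, with 4 of 6 above every control. *Cdh11* per 100 RPKM of *Cdh2* was 23.9 ± 8.72 and 25.7 ± 6.65, with 1 of 6 above every control. These 3 ratios were chosen with the fold changes in view and are given as a description.

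*Cdh4*, the type I R-cadherin, had 115, 260 and 361 normalized counts in the lowest, median and highest control and 177, 200 and 221 in βCat-GOF adrenals. Of the controls 5 of 6 lay above every βCat-GOF mouse, and Ctrl 1 lay below all of them. The log2 fold change was -0.36 (SE 0.20, 95% interval -0.80 to 0.08, edgeR adjusted p = 0.34). Without Ctrl 1 it was -0.50 with an adjusted p of 0.049 from edgeR, and *Cdh4* was then called. Ctrl 1 also had the lowest sum of 14 medulla markers, 5068 CPM. The other controls had 9416 to 15732 CPM and βCat-GOF mice 6278 to 11764. Ctrl 1 was the lowest control in the zG, glia and adipocyte sums too (3560, 17.1 and 173 CPM). In X-zone markers it was the highest control (5330 CPM). The part of any of these cells in the *Cdh4* values was not tested.

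*Cdh13*, the tailless T-cadherin, which binds adiponectin and is known from vessel walls, had 130, 168 and 203 normalized counts in the lowest, median and highest control and 106, 127 and 157 in βCat-GOF adrenals. The groups overlapped, with 4 βCat-GOF mice below every control and 5 controls above every βCat-GOF mouse. The log2 fold change was -0.40 (SE 0.16, 95% interval -0.73 to -0.06), with an unadjusted p of 0.023 and an adjusted p of 0.17 from edgeR. It was the only tested member with an unadjusted p under 0.05 in the lower direction, which 10.7% of all genes tested reached. Neither edgeR nor DESeq2 called any of the 5 tested members lower. All 10 endothelial markers had a log2 fold change under 0 as well, with a median of -0.13. Their summed level ran from 759 to 954 CPM in controls and from 677 to 968 in βCat-GOF adrenals, and their part in the *Cdh13* values was not tested.

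The 3 members outside the test had few reads, at most 15 in any mouse. *Cdh1*, the E-cadherin of most epithelia, had between 1 and 7 counts per mouse and 18 in all controls against 16 in all βCat-GOF mice. *Cdh3*, the P-cadherin often found with it, had between 2 and 15 counts per mouse, in sum 36 and 35. *Cdh10*, a type II cadherin of brain, had between 2 and 10 counts per mouse, in sum 23 and 26. Without the filter, edgeR gave log2 fold changes of -0.12 (SE 0.57) for *Cdh1*, 0.12 (SE 0.56) for *Cdh3* and 0.30 (SE 0.47) for *Cdh10*, with adjusted p of 0.94, 0.94 and 0.77, and DESeq2 called none of them. Standard errors of this size leave room for sizeable differences either way. Of markers of other epithelia, *Umod* (uromodulin, of the kidney tubule) was at 0 in every mouse and *Epcam* had between 0 and 5 counts, while *Krt18* had 5 to 43 and *Krt19* 1 to 33. The sum of 13 such genes ran from 0.798 to 4.80 CPM among controls and from 0.956 to 4.27 among βCat-GOF mice.

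**Figure D4:**
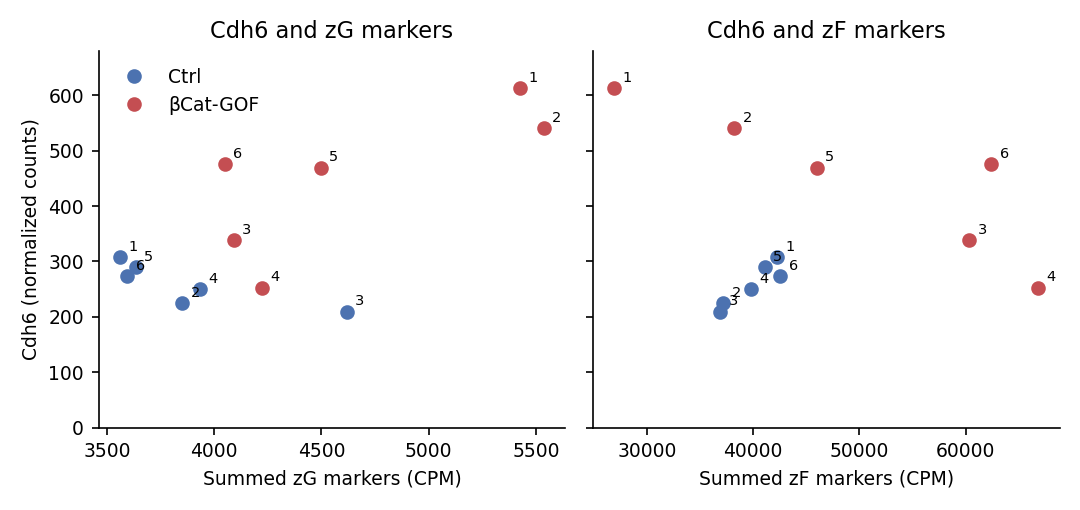
*Cdh6* in normalized counts against the summed CPM of 14 zG markers (left) and 8 zF markers (right), 1 point per mouse with its number, Ctrl in blue and βCat-GOF in red. βCat-GOF 1 and 2 have the highest *Cdh6* and zG sums, and the control points lie close together in the zF panel, which starts above 0 on the horizontal axis as does the zG panel.

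The cell type lists place *Cdh6* beside the marker transcripts of each gland. Of 13 tested zG markers 4 were called higher, *Dab2*, *Vsnl1* and the angiotensin receptors *Agtr1a* and *Agtr1b*, beside 1.48% of all genes tested. The median log2 fold change was 0.89 over the list against 0.00011 over all genes tested. DESeq2 called 9. Of the 13, 11 had a log2 fold change above 0 and 2 below, *Dlk1* with -0.74 (edgeR adjusted p = 0.14) and *Cyp11b2* with -0.18 (edgeR adjusted p = 0.82), and *Kcnk3*, which makes up 37.8% of the summed level, had 0.0070. *Agtr1b* had 471 ± 174 and 1383 ± 401 normalized counts (log2 fold change 1.55, edgeR adjusted p = 0.0041). The summed zG level ran from 3560 to 4617 CPM in controls and from 4050 to 5537 in βCat-GOF adrenals, and the part of these cells in the *Cdh6* values was not tested. *Dab2* was not called without Ctrl 4, Ctrl 5 or Ctrl 6.

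Of 8 zF markers edgeR called 2 higher, beside 1.48% of all genes tested, and DESeq2 called 3, beside 361 of 16901. The 2 from edgeR were *Akr1b7* and *Mrap*, the accessory protein of the ACTH receptor, with log2 fold changes of 1.48 and 1.03 (adjusted p = 0.046 and 0.043 from edgeR). In both genes 5 of 6 βCat-GOF mice lay above every control and 1 below every control. They passed in 2 and in 1 of 12 leave-one-out fits, and with 1 surrogate variable their log2 fold changes were 0.65 and 0.54. The summed zF level was between 36910 and 42553 CPM in controls but between 26920 and 66849 in βCat-GOF adrenals. *Star* made up 39.2% of this sum and *Cyp11b1* 26.8%. Their log2 fold changes were 0.49 and -0.18 (adjusted p = 0.19 and 0.67 from edgeR). The sum therefore follows a few transcripts and is no count of zF cells. Among the βCat-GOF mice, the 3 with the lowest zF sums (mouse 1 with 26920 CPM, mouse 2 with 38218 and mouse 5 with 45977) had 612, 540 and 469 normalized counts of *Cdh6*. The 3 with the highest (mouse 3 with 60354, mouse 6 with 62432 and mouse 4 with 66849) had 338, 475 and 253. This was noticed in the values and its part in the *Cdh6* result was not tested.

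Of the other cell type lists, the macrophage list had 1 of 8 tested genes called lower by edgeR, beside 0.869% of all genes tested. It was *Adgre1* (F4/80), with a log2 fold change of -0.78 (adjusted p = 0.046), which passed in 3 of 12 fits without 1 mouse. *Mrc1* (CD206) had -0.41 (edgeR adjusted p = 0.0495), under the fold of 1.4, and passed in 1 of 12. The summed macrophage level was 222 to 359 CPM in controls and 195 to 320 in βCat-GOF adrenals. No gene was called by edgeR among 14 medulla, 12 capsule and stroma, 10 endothelial, 7 glia, 7 adipocyte, 2 X-zone and 1 kidney and epithelium markers tested. The tested kidney and epithelium gene, *Krt18*, and most of the glia genes had a base mean under 100 and could not be called. An unadjusted p under 0.05 was reached by 9.73% of all genes tested in the higher and 10.7% in the lower direction. Of these, the lists held 5 macrophage genes lower, 6 medulla genes lower, 1 capsule gene higher and 1 lower, 2 endothelial genes lower and 1 adipocyte gene higher. DESeq2 called 2 medulla genes lower (*Gata2* and *Gata3*), beside 280 of 16901 genes.

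Of 15 further cadherins, 8 were left by the filter and none was called by edgeR or by DESeq2. Only *Cdh5* had a base mean above 100, so the rule could call none of the others. With *Cdh12* set aside for the reason given below, only *Cdh24* passed by adjusted p alone, with a base mean under 100. By that p alone 2.16% of all genes were higher and 1.52% lower. *Cdh12*, a type II cadherin of brain, had 4.20 ± 2.89 normalized counts in controls, from 0 to 7.35, and 22.7 ± 15.4 in βCat-GOF adrenals, from 11.6 to 51.8. It passed the filter on low counts only through the βCat-GOF group, with 0 of 6 controls and 6 of 6 βCat-GOF mice above the filter's cutoff of 0.471 CPM, so its difference is given as values without a test. *Cdh24*, another type II cadherin, had 17.9 ± 5.75 and 35.7 ± 7.56 normalized counts without overlap, which held for 2.78% of all genes in either direction, with a log2 fold change of 0.99 (SE 0.26, edgeR adjusted p = 0.049). It passed in 1 of 12 leave-one-out fits, the one without Ctrl 2. Endothelial *Cdh5* had a log2 fold change of -0.08 (edgeR adjusted p = 0.67) and made up 75.0% of the summed CPM of these 15 genes.

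**Figure D5:**
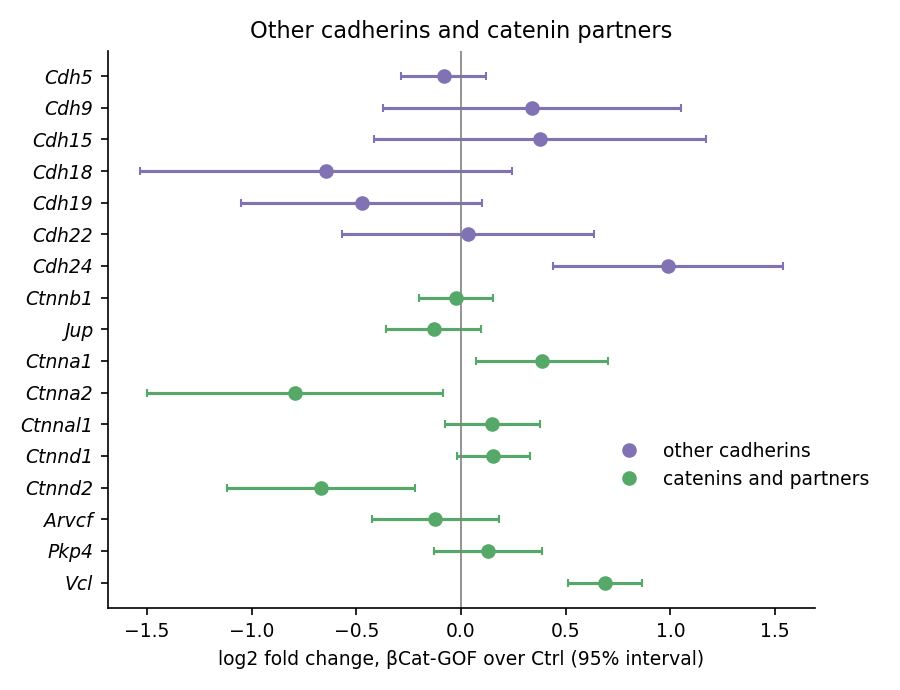
log2 fold change of βCat-GOF over Ctrl with 95% intervals for the tested further cadherins (purple) and for catenins and other partners of cadherin tails (green), 6 mice per group. *Vcl* has a narrow interval to the right of 0, and the interval of *Cdh24* also lies to the right of 0. *Cdh12*, which passed the filter only through the βCat-GOF group, is not drawn.

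Among 11 catenins and partners of the cadherin tail, 10 were tested and 1 was called higher, beside 1.48% of all genes tested. *Vcl*, which encodes vinculin, an actin-binding protein that α-catenin recruits to junctions under tension, had 2881 ± 157 normalized counts in controls (2711 to 3095) and 4670 ± 557 in βCat-GOF adrenals (4084 to 5640). No βCat-GOF mouse overlapped a control, which held for 2.78% of all genes in either direction. Its log2 fold change was 0.69 (SE 0.08, edgeR adjusted p = 0.00066), and it passed in 12 of 12 fits that left out 1 mouse. *Ctnnb1* itself had 21625 ± 858 and 21397 ± 1151 normalized counts (log2 fold change -0.02, edgeR adjusted p = 0.91), a count per gene that does not show the deleted exon. For *Ctnna1* (α-catenin) the log2 fold change was 0.39 with an adjusted p of 0.16, and for *Ctnnd2* (δ-catenin) it was -0.67 with an adjusted p of 0.096, both from edgeR. For *Ctnnd1* (p120-catenin) and *Jup* (plakoglobin) it was 0.15 and -0.13 (adjusted p = 0.31 and 0.52 from edgeR).

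Few genes that act on cadherins passed any test. Of 15 tested genes of cadherin processing and turnover (such as *Furin*, which cleaves the propeptide, and *Adam10*, which sheds the ectodomain) none was called by edgeR, with 1 higher and 1 lower at an unadjusted p under 0.05 and 1 called lower by DESeq2 (*Pcsk6*). Of 8 tested repressors of cadherin transcription (the Snail, Zeb and Twist genes and their partners) none was called by either tool, with 1 lower at an unadjusted p under 0.05. Some of these repressors had a base mean under 100 and could not be called. Over all genes, 9.73% were higher and 10.7% lower at that unadjusted p, and DESeq2 called 280 of 16901 lower. The median log2 fold changes of the 2 lists were -0.01 and -0.09.

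Over the 12 mice, after the group means were subtracted, the genes whose log2 CPM followed *Cdh2* most closely among 11426 genes were *Prob1* (Pearson's r 0.93), *Ptprs* (0.92) and *Arhgap21* (0.91). For *Cdh6* they were *6720427I07Rik* (0.94), *Hypk* (0.92) and *Pias1* (0.91). These are the highest of many correlations over the same 12 libraries and are given as a description.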

How the data were processed

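RNA was measured in whole adrenals of 12 mice, 1 library each, grouped by the genotype in the labels. The authors aligned reads to mm10 with STAR, assigned reads with a single mapping to genes with featureCounts 1.4.4, and deposited raw counts. A second deposited table holds signal, the counts over a size factor per library, and entered no test. The counting strand is not given in the sources used here.

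Counts were tested with edgeR 4.0.16 (TMM, filterByExpr, quasi-likelihood, two-sided) in R 4.3.3 on the whole table, with Benjamini-Hochberg adjustment over the 14953 genes left by the filter. The members and lists were chosen with earlier results of these data known, and no list was tested as a set. Named are the 8 members, at most 6 genes per list with an adjusted p under 0.05 by size of change, the defining markers (1 is not reported here), and the 3 genes most like *Cdh2* and *Cdh6* (log2 CPM, prior count 2, base mean above 100). Further genes (*Cdh5*, *Ctnnb1*, *Ctnna1*, *Ctnnd1*, *Ctnnd2*, *Jup*, *Gata2*, *Gata3*, *Pcsk6*, *Dlk1*, *Kcnk3*, *Krt18*, *Krt19*, *Star*, *Cfd*, *Fabp4*) were chosen with their values in view or as background. RPKM used TMM-scaled library sizes and merged exons, which include retained introns. Copies were searched with blastn 2.17.0. Alternatives were DESeq2 1.42.0, its size factors, other filters, 1 surrogate variable (sva 3.50.0), other gene lengths, and leaving out mice. The longest protein-coding transcript, the 12 mice together, the ratios, and the alternatives for list genes were added after the data were seen. Scripts were tested on simulated data. Replicate numbers follow no pairing.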

Additional observations from a re-analysis of the deposited data

Results flagged for a closer look

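In 2 of the 16 groups formed by the 8 cadherins and both genotypes, 1 mouse stood apart from the other 5 by more than Dixon's 95% critical value, where chance gives about 1 in 20 groups. *Cdh1* had 6.83 normalized counts in βCat-GOF 2, the highest of its group. *Cdh10* had 7.62 normalized counts in Ctrl 3, the highest of the controls. Both values rest on at most 10 reads in a mouse, and neither gene passed the filter of the edgeR fit or was called without that filter or by DESeq2.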

How the results depend on the processing

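Of the 8 cadherins, 1 was called higher under DESeq2, DESeq2's size factors in edgeR, no filter, at least 10 counts in every mouse, an adjusted p alone and 1 surrogate variable. The number was 0 without the mice whose label repeats a stem and 0 without βCat-GOF 5, whose label starts with a different number. Without 1 mouse at a time it was between 0 and 1 for both the higher and the lower direction, the latter being *Cdh4* without Ctrl 1. The sign of *Cdh2* turned without Ctrl 2, and its log2 fold change ran from -0.14 to 0.039 without 1 mouse. That of *Cdh11* turned without Ctrl 4 and without βCat-GOF 5, the mouse with another number (-0.0017), and ran from -0.028 to 0.16. The cause was not tested. The share of *Cdh2* in controls was between 60.2% and 67.6% with 3 other gene lengths and between 62.9% and 66.7% without 1 control. With these lengths *Cdh2* and *Cdh11* stayed first and second while *Cdh4*, *Cdh6* and *Cdh13* changed places, as did *Cdh1* and *Cdh10* with each of the 3, and 0 of 7 neighbouring pairs passed. Over all 12 mice, with merged exons, 4 passed. With 5 mice the smallest p of the order test is 0.0625, so no such test was made without 1 mouse.

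Over all genes, 222 were called higher and 130 lower, against 361 and 280 with DESeq2, 146 to 340 and 61 to 223 without 1 mouse, and 255 and 228 without the mice that repeat a stem. For members with few counts, depth limits what can be seen. No paired analysis was possible because the replicate numbers were given in accession order and pair no mice.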
